A study of Mus musculus with 24 samples.

Results

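The secreted Wnt modulators described here are 9 mouse genes, Sfrp1, Sfrp2, Sfrp4, Sfrp5, Frzb, Dkk2, Dkk3, Wif1 and Axin2, out of 23462 genes named on the array. They were taken by symbol from 12 probes, of which 11 were bright enough to be kept, and all 9 genes had at least 1 kept probe. The samples are 24 one-colour arrays of infarcted heart tissue, all from male C57BL6/J mice. Every mouse had the left anterior descending coronary artery closed for 45 min and reopened for 24, 48 or 168 h, and the area at risk in the anterior wall was taken. IGF1 mice received recombinant insulin-like growth factor 1 as a bolus of 40 ng/g and then from a pump at 1 µg/g per day for the first 3 days, so at 168 h the infusion had ended. Vehicle mice received PBS with albumin, and each combination of treatment and time had 4 arrays. The series text calls the controls sham-operated, whereas the label of every vehicle sample names 45 min of ischemia, and the labels were followed. No group of uninjured hearts was analysed here, and the labels give no age. No label ties an array to a named animal, and the spread that the p-values rest on is that among these samples, which may be technical.

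Wnt proteins are secreted signals that bind Frizzled receptors and Lrp co-receptors, and in the canonical branch they stabilise beta-catenin, which acts with TCF/LEF factors on target genes. Secreted frizzled-related proteins (Sfrp1, Sfrp2, Sfrp4, Sfrp5 and Frzb) carry a Frizzled-like domain and can bind Wnts outside the cell, Wif1 also binds Wnts, and Dickkopf proteins such as Dkk2 act on Lrp co-receptors. In the injured heart, such modulators are known mainly as products of fibroblasts and other stromal cells. Axin2 is not secreted: it is an intracellular scaffold of the complex that degrades beta-catenin and a widely used target gene of canonical Wnt signalling.

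Levels are log2 of the processed probe signal over the array's 75th percentile, so 0 is the level of that percentile, and levels of different probes are not set against each other. Group values are means ± SD of 4 arrays and differences are log2 values ± SE of the fit. A gene was called when its limma p, adjusted by the Benjamini-Hochberg method over 15875 genes, was below 0.05. A probe is called well above background by the scanner software. From 52.7 to 62.9% of spots per array met that mark, and the number of arrays limits the precision. As a check of the labelled tissue, all 8 cardiomyocyte genes were well above background on all 4 arrays of every group.

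RefSeq promoter windows were at hand for 6 of the 9 genes. The 250 bases before the start are printed for Sfrp2 and Frzb, which rose together with reperfusion time, and for Axin2, the usual readout of TCF/LEF activity (build GRCm38.p6, 5′ to 3′ on the strand of the gene, capitals reserved for a TCF/LEF-type motif).
Sfrp2, chr3:83766071-83766320 (plus strand): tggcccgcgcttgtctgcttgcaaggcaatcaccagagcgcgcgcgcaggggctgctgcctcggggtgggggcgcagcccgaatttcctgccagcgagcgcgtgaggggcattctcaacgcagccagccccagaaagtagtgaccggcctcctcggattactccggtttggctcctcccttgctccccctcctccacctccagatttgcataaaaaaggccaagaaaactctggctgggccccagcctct
Frzb, chr2:80447397-80447646 (minus strand): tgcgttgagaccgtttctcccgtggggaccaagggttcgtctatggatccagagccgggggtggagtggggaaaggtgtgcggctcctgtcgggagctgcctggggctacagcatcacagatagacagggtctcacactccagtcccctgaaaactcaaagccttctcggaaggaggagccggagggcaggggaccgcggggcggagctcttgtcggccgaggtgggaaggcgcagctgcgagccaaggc
Axin2, chr11:108920099-108920348 (plus strand): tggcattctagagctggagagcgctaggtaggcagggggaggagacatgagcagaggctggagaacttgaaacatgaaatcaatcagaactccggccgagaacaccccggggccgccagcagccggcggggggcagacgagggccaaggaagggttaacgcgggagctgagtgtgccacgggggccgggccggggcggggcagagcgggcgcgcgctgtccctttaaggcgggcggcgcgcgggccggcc
The motifs searched were CTTTGAT and CTTTGAA on both strands. They were in 0 of the 6 member windows, including those of Sfrp5, Dkk2 and Wif1, and in 7.48% of the 32851 mouse windows of that length. This says only that these letters are not in these windows. Sfrp1, Sfrp4 and Dkk3 were not searched.

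Whether a gene was measurable depended on the time. Sfrp1, Sfrp2, Frzb and Dkk3 were well above background on all 24 arrays. Sfrp4 was above it on 0 of 4 IGF1 and 0 of 4 vehicle arrays at 24 h, on 3 IGF1 and 3 vehicle arrays at 48 h, and on all arrays at 168 h. Dkk2 was above it at 168 h alone, on 4 IGF1 arrays and 2 vehicle arrays. Wif1 was above it on 4 IGF1 arrays and 1 vehicle array at 24 h, on 3 IGF1 and 2 vehicle arrays at 48 h, and on all arrays at 168 h. For Sfrp5 the counts were 4 IGF1 arrays and 0 vehicle arrays at 24 h, 3 IGF1 and 4 vehicle arrays at 48 h, and 3 IGF1 and 2 vehicle arrays at 168 h. For Axin2 they were 2 IGF1 arrays and 0 vehicle arrays at 24 h, 0 IGF1 arrays and 1 vehicle array at 48 h, and 4 IGF1 and 3 vehicle arrays at 168 h.

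**Figure D1:**
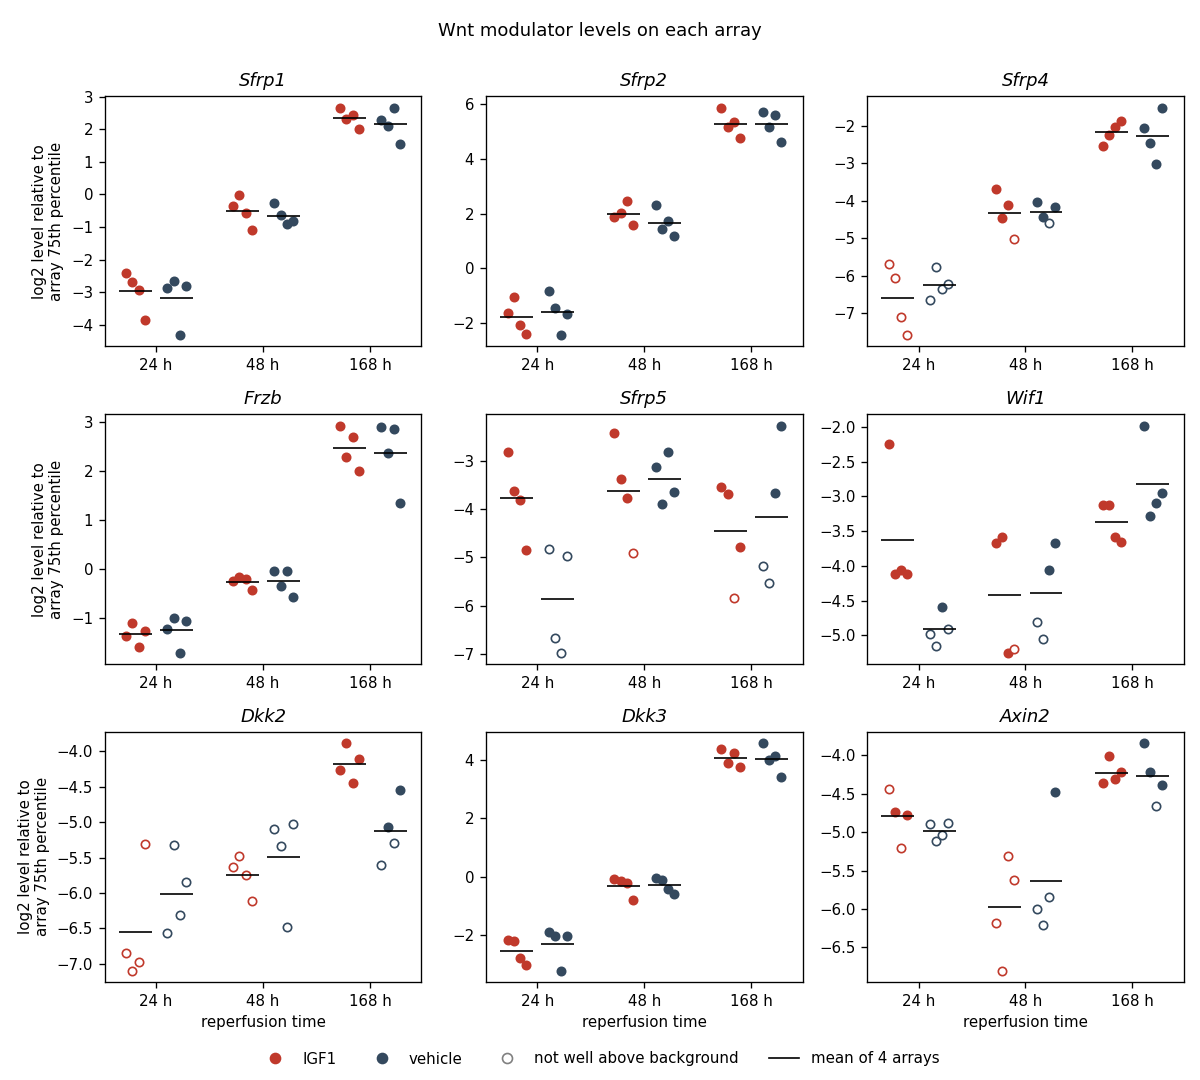
Level of each gene on each array (log2 of signal over the array's 75th percentile, 1 point per array) at 24, 48 and 168 h, IGF1 left of vehicle, with the mean of 4 arrays as a line and open points where the probe was not well above background. Sfrp1, Sfrp2, Frzb and Dkk3 climb at each time in both treatments with no overlap between times, whereas Sfrp5, Wif1, Dkk2 and Axin2 lie near background on many arrays.

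Between 24 and 168 h of reperfusion, Sfrp2, Dkk3, Sfrp1, Frzb and Sfrp4 were called higher in both treatments with no overlap of their arrays. The Axin2 arrays did not overlap either, but its differences did not pass the test. The share of all genes without overlap was not computed. At 168 h against 24 h, 6 genes were called higher and 0 lower in IGF1 hearts, where 26.2% of all genes were called higher and 31.9% lower. In vehicle hearts 8 were called higher and 0 lower, where 29.2% of all genes were called higher and 31.0% lower. Both counts of higher genes include Dkk2, whose probe was bright enough to be kept only through arrays of 168 h. The median log2 difference of the 9 genes was 3.81 in IGF1 hearts and 3.62 in vehicle hearts, and that of all genes was -0.05 in IGF1 hearts and -0.01 in vehicle hearts. The comparison asks how expression in the area at risk changed from the early inflammatory to the scar-forming period.

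Sfrp2, a frizzled-related protein studied in cardiac fibrosis, had the largest rise among the genes well above background at both 24 and 168 h. At 24 h its level was -1.66, -1.07, -2.07 and -2.41 on the IGF1 arrays and -0.82, -1.47, -2.44 and -1.67 on the vehicle arrays. At 48 h it was 1.86, 2.01, 2.45 and 1.59 on the IGF1 arrays and 2.33, 1.44, 1.72 and 1.19 on the vehicle arrays. By 168 h it reached 5.87, 5.15, 5.37 and 4.75 on the IGF1 arrays and 5.70, 5.16, 5.59 and 4.61 on the vehicle arrays. Every array of a later time lay above every array of an earlier time, and the treatments overlapped at each time. The rise at 168 h against 24 h was 136-fold in IGF1 hearts (log2 7.08 ± 0.35, adjusted p = 2.44e-12) and 117-fold in vehicle hearts (log2 6.87 ± 0.35, adjusted p = 4.63e-12).

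Dkk3, a Dickkopf family member whose effect on Wnt signalling varies with the cell type, followed with most of its rise after 48 h. At 24 h its level was -2.15, -2.18, -2.77 and -3.00 on the IGF1 arrays and -1.89, -2.01, -3.20 and -2.02 on the vehicle arrays. At 48 h it was -0.08, -0.14, -0.21 and -0.78 on the IGF1 arrays and -0.04, -0.11, -0.41 and -0.60 on the vehicle arrays. At 168 h it was 4.35, 3.90, 4.23 and 3.76 on the IGF1 arrays and 4.56, 3.99, 4.11 and 3.42 on the vehicle arrays. The 3 times did not overlap in either treatment. The difference between 168 and 24 h was 96.3-fold in IGF1 hearts (adjusted p = 4.80e-13) and 79.0-fold in vehicle hearts (adjusted p = 7.68e-13). A second Dkk3 probe gave log2 differences of 6.47 in IGF1 hearts and 6.27 in vehicle hearts.

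Sfrp1, another frizzled-related Wnt antagonist, ranged over -3.86 to -2.41 on IGF1 arrays and -4.30 to -2.65 on vehicle arrays at 24 h. At 48 h the ranges were -1.07 to -0.02 on IGF1 arrays and -0.89 to -0.26 on vehicle arrays, and at 168 h they were 2.00 to 2.64 on IGF1 arrays and 1.53 to 2.66 on vehicle arrays. It rose 39.9-fold in IGF1 hearts (adjusted p = 9.69e-11) and 39.4-fold in vehicle hearts (adjusted p = 9.30e-11) between 24 and 168 h. Frzb, also named Sfrp3 and first known from cartilage, averaged -1.33 ± 0.20 on IGF1 arrays and -1.25 ± 0.32 on vehicle arrays at 24 h. Its means were -0.26 ± 0.12 on IGF1 arrays and -0.25 ± 0.27 on vehicle arrays at 48 h, and 2.48 ± 0.42 on IGF1 arrays and 2.38 ± 0.73 on vehicle arrays at 168 h. Frzb was 14.1-fold higher at 168 h than at 24 h in IGF1 hearts (adjusted p = 2.71e-10) and 12.3-fold higher in vehicle hearts (adjusted p = 5.31e-10). Its second probe gave log2 differences of 3.51 in IGF1 hearts and 3.41 in vehicle hearts.

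Sfrp4, the remaining frizzled-related gene that rose in both treatments, came up from below background. At 24 h its probe read -5.68, -6.07, -7.10 and -7.58 on the IGF1 arrays and -6.65, -5.77, -6.36 and -6.22 on the vehicle arrays. At 48 h it read -3.69, -4.45, -4.13 and -5.01 on the IGF1 arrays and -4.05, -4.42, -4.59 and -4.16 on the vehicle arrays. The 168 h arrays read -2.54, -2.25, -2.05 and -1.87 on the IGF1 arrays and -2.07, -2.47, -3.01 and -1.52 on the vehicle arrays. Since no array measured it at 24 h, its change is a bound, which sets the mean of the brighter group against the lowest signal well above background on each dim array or, if higher, the signal of the probe itself. Such a bound, given as "at least", compares means, leaves out their spread and is not a confidence limit. The adjusted p printed with a bound is that of the fitted difference. At 168 h it was at least 6.73-fold higher in IGF1 hearts (adjusted p = 2.72e-09) and at least 5.75-fold higher in vehicle hearts (adjusted p = 1.11e-08). Normexp background correction, which adds an offset to every signal, gave smaller log2 differences with the calls kept, at 1.58 for Sfrp4 in IGF1 hearts and 1.44 in vehicle hearts, and at 4.47 for Sfrp1 in IGF1 hearts and 4.33 in vehicle hearts.

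The share of each rise that was reached by 48 h is a description. By then, Sfrp2 had covered 53.3% of its log2 rise in IGF1 hearts and 47.6% in vehicle hearts, and Sfrp1 had covered 46.5% in IGF1 hearts and 47.4% in vehicle hearts. Dkk3 had covered 33.7% in IGF1 hearts and 31.6% in vehicle hearts, and Frzb 28.3% in IGF1 hearts and 27.6% in vehicle hearts. The differences between these shares were not tested. At 48 h against 24 h, 5 of the 9 genes were called higher and 1 lower in IGF1 hearts, where 17.2% of all genes were called higher and 19.3% lower. In vehicle hearts 6 were called higher and 0 lower, where 11.6% of all genes were called higher and 11.1% lower. At 168 h against 48 h, 7 were called higher and 0 lower in IGF1 hearts, where 23.8% of all genes were called higher and 25.4% lower. In vehicle hearts 7 were called higher and 0 lower at that step, where 25.8% of all genes were called higher and 27.6% lower. At that step the IGF1 count includes Dkk2 and Axin2, and the vehicle count includes Axin2. The probes of Dkk2 and Axin2 were bright enough to be kept only with the arrays of 168 h counted.

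Markers of several cell types also differed between these times. The summed level of 10 fibroblast markers, in units of the 75th percentile of the array, was 172 to 261 on IGF1 arrays and 166 to 244 on vehicle arrays at 24 h, and 374 to 503 on IGF1 arrays and 444 to 532 on vehicle arrays at 48 h. At 168 h it was 907 to 1080 on IGF1 arrays and 897 to 1056 on vehicle arrays. At 168 h against 24 h, 9 of these 10 markers were called higher in each treatment. The summed level of 6 genes of matrix fibroblasts of mature scar was 3.13 to 4.41 on IGF1 arrays and 3.69 to 5.34 on vehicle arrays at 24 h, and 92.9 to 145 on IGF1 arrays and 61.2 to 149 on vehicle arrays at 168 h, and all 6 were called higher in each treatment. Of 8 myofibroblast markers, 7 were called higher and 0 lower in IGF1 hearts, and 6 higher and 1 lower in vehicle hearts. Of 6 smooth muscle and pericyte markers, 5 were called higher and 1 lower in IGF1 hearts, and 3 higher and 0 lower in vehicle hearts. Of 9 mesothelium and epicardium markers, 3 were called higher and 1 lower in IGF1 hearts, and 6 higher and 1 lower in vehicle hearts. Yet their summed level was 7.60 to 11.5 on IGF1 arrays and 9.30 to 13.0 on vehicle arrays at 24 h. At 168 h that sum was 5.39 to 8.27 on IGF1 arrays and 5.95 to 10.4 on vehicle arrays. In each treatment, 2 of the 9 were well above background on no array at 24 h. Neutrophil markers fell, with 5 of 6 called lower in IGF1 hearts and 4 of 6 in vehicle hearts, and median log2 differences of -6.81 in IGF1 hearts and -6.14 in vehicle hearts. None of the 9 genes is in these lists. Their part in the rises was not tested, and in tissue RNA more cells of a type and more RNA per cell cannot be told apart. Slide also varied with time: no slide held IGF1 arrays of both 48 and 168 h. Within the 2 slides that held vehicle arrays of both 24 and 168 h, the log2 rise of Sfrp2 was 6.28 and 6.30, and that of Dkk3 was 5.44 and 6.11. On the same slides it was 4.34 and 5.22 for Sfrp1, 2.41 and 3.94 for Frzb, and 4.70 and 4.13 for Sfrp4. In IGF1 hearts the slides differed most for Sfrp4, among these 5 genes, at 5.71 and 3.40.

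**Figure D2:**
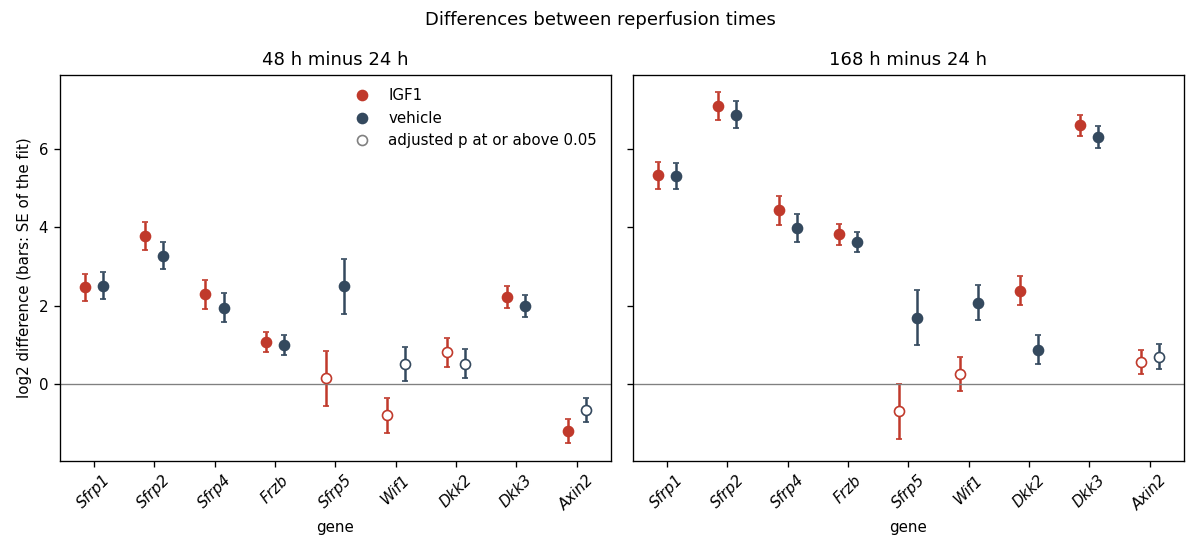
Log2 difference of each gene at 48 h (left) and 168 h (right) from 24 h, IGF1 left of vehicle for each gene, with bars of 1 SE of the fit and open points where the adjusted p was 0.05 or above. Sfrp1, Sfrp2, Sfrp4, Frzb and Dkk3 are above 0 at both times in both treatments, up to 7.08 for Sfrp2 in IGF1 hearts.

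The other 4 genes were dim, and their calls between times were less firm. Wif1, the Wnt inhibitory factor, was higher at 168 h than at 24 h in vehicle hearts, 4.22-fold with 1 of the 4 arrays at 24 h well above background (log2 2.08 ± 0.44, adjusted p = 0.000354) with no overlap of the arrays. With normexp background correction that difference was 0.81 (adjusted p = 0.00685). At 48 h its level was -3.67, -3.59, -5.25 and -5.20 on the IGF1 arrays and -4.81, -5.05, -4.06 and -3.67 on the vehicle arrays, and at 168 h it was -3.13, -3.12, -3.58 and -3.65 on the IGF1 arrays and -1.98, -3.29, -3.09 and -2.95 on the vehicle arrays. In IGF1 hearts the log2 difference between 168 and 24 h was 0.27 ± 0.44 and did not pass the test (adjusted p = 0.633). The F test for a change of its IGF1 effect with time was not passed (adjusted p = 0.146), so the time courses of the treatments are not shown to differ. Wif1 at 168 h against 48 h in vehicle hearts (adjusted p = 0.00498) was lost with slide as a block (adjusted p = 0.166).

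Dkk2, a ligand of Lrp co-receptors that can antagonise Wnt signals, was higher in IGF1 hearts at 168 h than at 24 h, by at least 1.67-fold (adjusted p = 1.23e-05). Its probe passed the filter on dim probes only through the 6 arrays of 168 h on which it was well above background. This difference and every other Dkk2 test that uses 168 h arrays, the F test included, are thus descriptions. With normexp the log2 difference between 168 and 24 h in IGF1 hearts was 0.47 (adjusted p = 0.000898), against 2.38 ± 0.37 without it. It read -7.09 to -5.30 on IGF1 arrays and -6.57 to -5.32 on vehicle arrays at 24 h, and -6.11 to -5.48 on IGF1 arrays and -6.49 to -5.03 on vehicle arrays at 48 h, all below the mark. At 168 h its level was -4.27, -3.89, -4.45 and -4.11 on the IGF1 arrays and -5.61, -5.07, -5.30 and -4.55 on the vehicle arrays. The groups did not overlap at that time, with IGF1 higher, yet the difference of 0.95 ± 0.37 did not pass the test (unadjusted p = 0.0169, adjusted p = 1.00). The F test for a change of the IGF1 effect with time was not passed for Dkk2 (adjusted p = 0.138), but was without IGF1 24 h replicate 4 (adjusted p = 0.0299), with array weights (0.0248) and with normexp (0.0381). Leaving out that replicate also made Dkk2 called lower with IGF1 at 24 h (log2 -0.97, adjusted p = 0.0457), where every array was below the mark. In vehicle hearts the rise from 24 h was called (adjusted p = 0.0447) with overlapping arrays and no bound above 1-fold. That vehicle call was lost under several settings, among them the 75th percentile over probe averages (adjusted p = 0.0516) and the authors' deposited value table (adjusted p = 0.0505), and without vehicle 168 h replicate 2, 3 or 4 or 24 h replicate 1, 3 or 4 (adjusted p of 0.0786, 0.056, 0.142, 0.14, 0.107 and 0.0545). With normexp background correction its sign turned (log2 -0.0708).

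Axin2 had its lowest means at 48 h in both treatments. Its level at 24 h was -4.43, -4.74, -5.20 and -4.78 on the IGF1 arrays and -4.90, -5.11, -5.04 and -4.88 on the vehicle arrays. At 48 h it was -6.18, -6.80, -5.31 and -5.62 on the IGF1 arrays and -6.00, -6.21, -5.85 and -4.48 on the vehicle arrays. At 168 h it was -4.36, -4.01, -4.31 and -4.22 on the IGF1 arrays and -3.85, -4.22, -4.66 and -4.38 on the vehicle arrays. In IGF1 hearts it was at least 1.13-fold lower at 48 h than at 24 h (adjusted p = 0.00545) and at least 1.67-fold higher at 168 h than at 48 h (adjusted p = 9.94e-05), with no overlap in either step. The probe was well above background on 10 arrays and passed the filter on dim probes only with those of 168 h counted. Differences of Axin2 between 168 h and earlier times are thus a description. In vehicle hearts the difference of -0.65 ± 0.31 at 48 h did not pass the test (adjusted p = 0.140), and it did without vehicle 48 h replicate 4 (log2 -1.04, adjusted p = 0.00766), without slide 4 (-1.01, 0.0297) and with array weights (-0.88, 0.049). The vehicle 168 h level was called higher than that at 48 h (adjusted p = 0.00100) with overlapping arrays and with 3 of 4 arrays at 168 h and 1 of 4 at 48 h well above background, so no fold is given. Slide 4 alone held vehicle arrays of both times, 1 of each, and there the log2 difference was 0.10, against 1.36 ± 0.31 in the fit. With normexp background correction that vehicle step no longer passed (adjusted p = 0.372). The 168 h and 24 h levels did not differ past the threshold in IGF1 hearts (adjusted p = 0.132) or in vehicle hearts (adjusted p = 0.0570), though both passed when only the compared groups were fitted (adjusted p of 0.0171 in IGF1 hearts and 0.00633 in vehicle hearts). Every 168 h array lay above every 24 h array of the same treatment. A second Axin2 probe was above background on 2 of 24 arrays and was not kept.

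Setting IGF1 against vehicle hearts of the same reperfusion time asks whether the treatment changed expression after infarction. At 24 h, 1 of the 9 genes was called, Sfrp5, higher with IGF1, where 16.3% of all genes were called in either direction. At 48 h, 0 of the 9 were called by limma, where 0.0126% of all genes were called. The unadjusted p at 48 h was below 0.05 for 0 of the 9 and for 1430 of all 15875 genes. At 168 h, 0 of the 9 were called, where 0% of all genes were called. The unadjusted p at 168 h was below 0.05 for 1 of the 9, Dkk2, and for 637 of all 15875 genes. The Dkk2 probe was kept only through arrays of 168 h. By the F test for an IGF1 effect that differs between times, 0 of the 9 were called, where 5.65% of all genes were called. The unadjusted p of the F test was below 0.05 for 3 of the 9 and for 3631 of all 15875 genes.

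Sfrp5, a frizzled-related protein known from fat tissue, was the gene behind the 24 h call. Its level was -2.80, -3.62, -3.81 and -4.84 on the IGF1 arrays, all well above background, and -4.82, -6.67, -6.98 and -4.96 on the vehicle arrays, none of them above it. The lowest IGF1 array lay just below the highest vehicle array. By the bound on means, Sfrp5 was at least 2.03-fold higher with IGF1. The fitted log2 difference was 2.09 ± 0.70 (adjusted p = 0.0473), and the difference was above 0 on all 4 slides, between 0.13 and 3.17. The call sits at the threshold. It was lost with slide as a block (adjusted p = 0.0507), with array weights (0.0566), with only the compared groups fitted (0.0762), with dim probes left unfiltered (0.0788) and with normexp background correction (0.367). The log2 difference with normexp was 0.44. It was also lost without IGF1 replicate 1, 2 or 3 or vehicle replicate 2 or 3 (adjusted p of 0.161, 0.0847, 0.0721, 0.136 and 0.141). Of 6 adipocyte markers, Adipoq and Plin1 were not measured, and the summed level of the other 4 was 0.369 to 0.537 on IGF1 arrays and 0.404 to 0.837 on vehicle arrays at 24 h.

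At later times the Sfrp5 difference did not pass the test. At 48 h its level was -2.42, -3.36, -3.76 and -4.91 on the IGF1 arrays and -3.12, -3.89, -2.81 and -3.65 on the vehicle arrays. At 168 h the level was -3.53, -3.67, -5.84 and -4.78 on the IGF1 arrays and -5.17, -5.54, -3.67 and -2.26 on the vehicle arrays. The treatments overlapped at both times, with differences of -0.25 ± 0.70 at 48 h and -0.30 ± 0.70 at 168 h, and the F test for a change of the IGF1 effect with time was not passed (adjusted p = 0.196). In vehicle hearts Sfrp5 was at least 2.69-fold higher at 48 h than at 24 h (adjusted p = 0.0148), a call lost without vehicle 24 h replicate 3 (adjusted p = 0.0634) and with normexp background correction (log2 0.66, adjusted p = 0.122). Its 168 h call against 24 h in vehicle hearts (adjusted p = 0.0428) had overlapping arrays. It was lost under 12 of 23 alternatives. These were slide as a block (adjusted p = 0.151), normexp (0.271), quantile normalization (0.06), median scaling (0.0502), dim probes left unfiltered (0.065), array weights (0.0561), only the compared groups (0.104), leaving out slide 4 (0.129), and leaving out vehicle 168 h replicate 3 or 4 or 24 h replicate 2 or 3 (adjusted p of 0.0973, 0.191, 0.118 and 0.139).

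Wif1 stood just outside the threshold at 24 h. It was -2.25, -4.11, -4.06 and -4.12 on the IGF1 arrays and -4.98, -5.15, -4.59 and -4.91 on the vehicle arrays. The lowest IGF1 array was above the highest vehicle array, 2.41-fold on average, with 1 vehicle array well above background (log2 1.27 ± 0.44, adjusted p = 0.0524). Without overlap, the difference is above 0 on all 4 slides in any case, so the slides add nothing here. With slide as a block the adjusted p was 0.0425, and with the replicate block it was 0.0444, so the count of called genes at 24 h was 2 with the replicate block. The difference was 0.81 without IGF1 replicate 1, the array that stood highest (adjusted p = 0.23), and 0.45 with normexp background correction (adjusted p = 0.249). The adjusted p lay between 0.0425 and 0.249 over the 23 alternatives. At 48 h the Wif1 difference was -0.03 ± 0.44 and at 168 h it was -0.54 ± 0.44.

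The genes that rose most with time did not differ past the threshold between treatments. The difference between IGF1 and vehicle hearts at 24, 48 and 168 h was -0.20 ± 0.35, 0.31 ± 0.35 and 0.02 ± 0.35 for Sfrp2. For Dkk3 it was -0.25 ± 0.28, -0.01 ± 0.28 and 0.04 ± 0.28, and for Frzb it was -0.09 ± 0.26, -0.01 ± 0.26 and 0.10 ± 0.26. Sfrp1 gave 0.19 ± 0.34, 0.15 ± 0.34 and 0.20 ± 0.34. These values do not show that the treatments act alike.

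**Figure D3:**
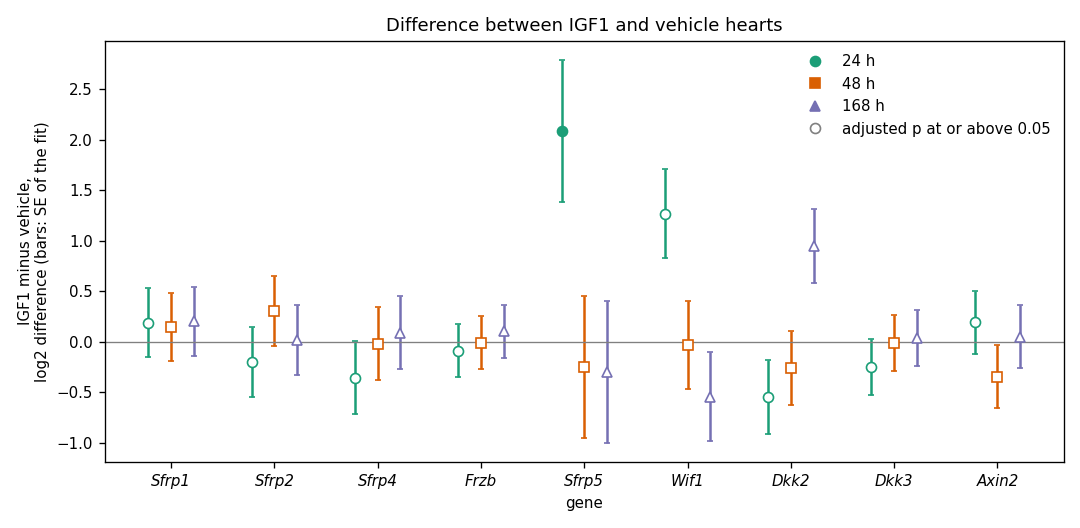
Log2 difference between IGF1 and vehicle hearts for each gene at 24 h (circles), 48 h (squares) and 168 h (triangles), with bars of 1 SE of the fit and open symbols where the adjusted p was 0.05 or above. The filled symbol is Sfrp5 at 24 h (2.09), Wif1 at 24 h lies at 1.27, and the other differences lie between -0.55 and 0.95.

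Other genes of the pathway were followed in lists. Of 15 measured Wnt receptors, 11 rose and 0 fell at 168 h against 24 h in IGF1 hearts, and 13 rose and 0 fell in vehicle hearts, with median log2 differences of 0.65 in IGF1 hearts and 0.66 in vehicle hearts. The receptor tyrosine kinase Ror2 rose 3.89-fold in IGF1 hearts and 2.92-fold in vehicle hearts, and the Frizzled receptor Fzd2 rose 3.44-fold in IGF1 hearts and 3.12-fold in vehicle hearts. Of 13 measured genes of the ligand list, which includes the secretion factors Porcn and Wls, 8 rose and 1 fell in IGF1 hearts, and 6 rose and 0 fell in vehicle hearts, with median log2 differences of 0.40 in IGF1 hearts and 0.41 in vehicle hearts. Wnt11, a ligand best known for non-canonical signalling, rose 3.27-fold in IGF1 hearts and 4.55-fold in vehicle hearts.

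Among 10 other secreted or membrane modulators, 6 rose and 0 fell in IGF1 hearts and 5 rose and 0 fell in vehicle hearts, with median log2 differences of 1.15 in IGF1 hearts and 0.95 in vehicle hearts. Cthrc1, a collagen triple helix protein made by activated fibroblasts and also in the myofibroblast marker list, rose 59.0-fold in IGF1 hearts and 36.1-fold in vehicle hearts. Of 5 measured genes of the R-spondin axis, 2 rose and 1 fell in each treatment, with median log2 differences of 0.13 in IGF1 hearts and 0.77 in vehicle hearts. Rspo1, a secreted enhancer of Wnt signals, rose 3.36-fold in IGF1 hearts and 4.38-fold in vehicle hearts. Of all genes, 26.2% were called higher and 31.9% lower in IGF1 hearts and 29.2% higher and 31.0% lower in vehicle hearts. The intracellular transducers lay near these shares, with 6 of 21 higher and 4 lower in IGF1 hearts and 5 higher and 8 lower in vehicle hearts, with median log2 differences of 0.09 in IGF1 hearts and -0.04 in vehicle hearts. Among feedback and target genes other than Axin2 there were 5 of 11 higher and 3 lower in IGF1 hearts and 5 higher and 5 lower in vehicle hearts, with median log2 differences of 0.37 in IGF1 hearts and 0.10 in vehicle hearts. Nkd1, an intracellular feedback inhibitor, rose 3.50-fold in IGF1 hearts and 2.69-fold in vehicle hearts, whereas Myc, a growth regulator with many inputs, fell by 2.03 on the log2 scale in IGF1 hearts and fell by 2.52 in vehicle hearts.

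**Figure D4:**
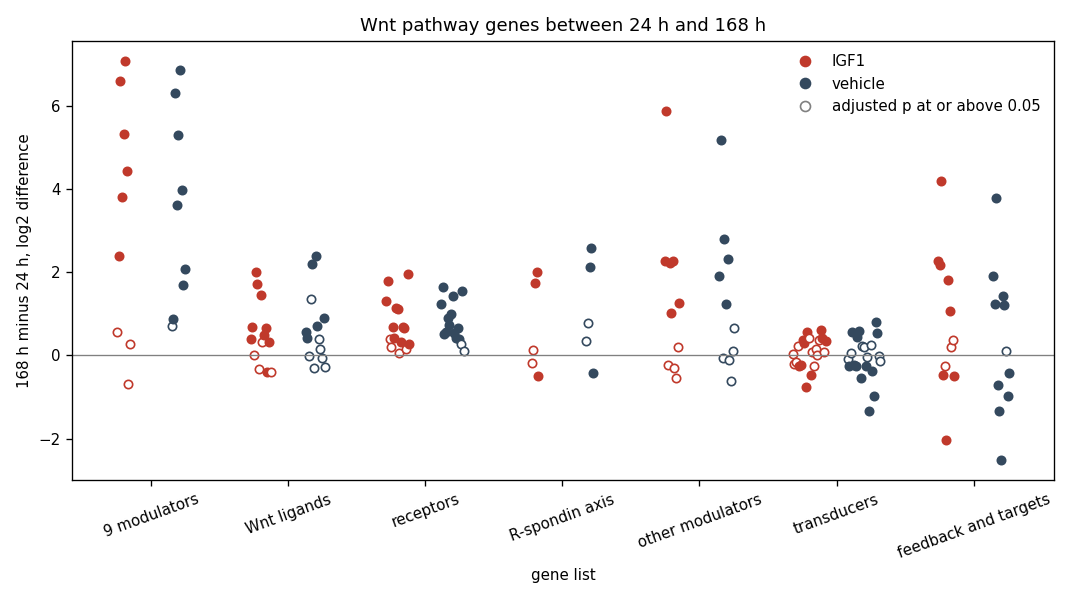
Log2 difference between 168 and 24 h for the 9 modulators and for 6 lists of Wnt pathway genes, 1 point per gene, IGF1 left of vehicle, with open points where the adjusted p was 0.05 or above. The receptors all lie above 0, and the transducers and the feedback and target genes lie on both sides of it.

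Between IGF1 and vehicle hearts at 24 h, where 16.3% of all genes were called, 0 of 15 receptors and 0 of 10 other modulators were called, and 1 of 13 ligand genes was called higher, Wnt9a (log2 0.51 ± 0.12, adjusted p = 0.00851). Of 5 genes of the R-spondin axis, Lgr4, a receptor for R-spondins, was called higher (log2 0.51 ± 0.17, adjusted p = 0.0449). Of 21 transducers, 5 were called lower and 0 higher, among them the transcription factors Lef1 (log2 -1.17 ± 0.21, adjusted p = 0.00201) and Tcf7 (log2 -1.15 ± 0.22, adjusted p = 0.00261), which are also abundant in T cells. Beside these, 4 of 5 measured lymphocyte markers were lower with IGF1 at 24 h, with a summed level of 0.874 to 1.32 on IGF1 arrays and 1.89 to 2.47 on vehicle arrays, and their part in the Lef1 and Tcf7 differences was not tested. Of 11 feedback and target genes 2 were called lower, and they are Lef1 and Tcf7 again, which stand in both lists. At 48 and 168 h, 0 genes of any of the 6 lists were called between treatments.

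Likeness of pattern was measured as Pearson's r over the 24 arrays, which share the effect of time, and is given as a description. The 3 genes most like Sfrp2 were Fstl1, Adamts2 and Cthrc1 (r of 0.995, 0.994 and 0.991), and those most like Dkk3 were Comp, Pdgfrl and Antxr1 (0.996, 0.996 and 0.995). Frzb was most like Mgp, Comp and Dact3 (0.992, 0.991 and 0.990), Sfrp1 was most like Mmp23, Fndc1 and Mxra8 (0.991, 0.991 and 0.990), and Sfrp4 was most like Meg3, Lgi2 and Fap (0.981, 0.976 and 0.974). For the dim genes the highest values were lower, with Axin2 most like Zfp251 (0.903), Wif1 most like Dhdh (0.883), Dkk2 most like Celf5 (0.856) and Sfrp5 most like Cep128 (0.731).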

How the data were processed

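Each sample was 1 Cy3 array, and per the file headers it was read with version 12.0.3.2 of Agilent's Feature Extraction. The deposited scanner files hold the processed signal as an intensity, corrected for background within the array per the file headers, and a median foreground and background intensity. The authors' deposited value table holds log2 values of 33957 probes, which differed from the log2 values computed here by 1 offset per probe and at most 0.0432 per array. Flags for outliers, saturation and background are codes of the same files.

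Control and outlier spots (53 to 130 of 59305 per array) were left out, 0 were saturated, and spots of a probe were averaged. Log2 of the processed signal minus log2 of the array's 75th percentile over non-control spots (534 to 897) was the level. This follows the written design. For a time the percentile over probe averages was used in its place, set after member calls were known, and the written definition was then restored. The same percentile over probe averages and over spots without outliers is an added alternative, and of all 3 only probe averages moved a call of a member (Dkk2 at 168 h against 24 h in vehicle hearts). Probes well above background on at least 4 of 24 arrays were kept, the brightest standing for its gene. Accessions gave 1 symbol for 33767 of 56605 probes (59.7%), and promoters came from RefSeq (GRCm38.p6).

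The comparisons used limma 3.58.1 under R 4.3.3 (group means over 24 arrays, 18 residual degrees of freedom, eBayes, two-sided, Benjamini-Hochberg over 15875 genes). It was tested on simulated data. Deviations of same-numbered IGF1 and vehicle arrays correlated by 0.186 to 0.502 at 168 h and by -0.0495 to 0.134 at 24 and 48 h. The closest match bore the same number for every replicate at 168 h and for replicates 1, 2 and 4 at 48 h. At 168 h replicate 4 of both treatments was on slide 4 and the other replicates on slide 1. Whether slide or pairing by number lies behind these values was not tested. Values for the pathway lists were given for genes among the 3 smallest p-values of a list and comparison, and likeness skipped predicted and clone names. The 9 genes, the lists and the tests were chosen with earlier results of these data known. Alternatives were normexp background correction (offset 50), quantile and median scaling, no filter and a stricter filter on dim probes, the mean of probes, slide and replicate blocks, array weights, robust and trended variance, the compared groups alone, the authors' table and leaving out each replicate.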

Additional observations from a re-analysis of the deposited data

Results flagged for a closer look

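In 54 groups of 4 arrays, 1 array lay far from the other 3 in 4 cases, and chance flags about 1 group in 20. On vehicle 24 h replicate 3, Sfrp1 was -4.30 against -2.87 to -2.65 on the others, and Dkk3 was -3.20 against -2.02 to -1.89. On IGF1 24 h replicate 1, Wif1 was -2.25 against -4.12 to -4.06 on the others. On IGF1 24 h replicate 4, Dkk2 was -5.30 against -7.09 to -6.85, and none of these 4 arrays was well above background.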

How the results depend on the processing

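Under the alternatives, 2079 of 2214 recomputed gene results kept their direction and side of the threshold. Sfrp1, Sfrp2, Frzb and Dkk3 kept their calls between times under every alternative run, and Sfrp4 lost only the 48 h against 24 h calls, with normexp (adjusted p = 0.13 in IGF1 hearts and 0.122 in vehicle hearts). The number of genes called between IGF1 and vehicle at 24 h, 1 of 9, was 0 with array weights, no filter on dim probes, normexp or only the compared groups in the fit. It was 2 with quantile normalization, the replicate block, robust and trended variance, the authors' deposited table or the filter for all 4 arrays of a group, and 0 to 3 on leaving out 1 replicate. The number for the F test, 0, was 1 with array weights, with normexp and, for 0 to 1 over left-out replicates, without IGF1 24 h replicate 4, and that gene was Dkk2 (adjusted p of 0.0248, 0.0381 and 0.0299). For Dkk2 this is a description, since its probe was kept only through arrays of 168 h.

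The replicate block moved no other count by more than 1.5 times and added the Wif1 call at 168 h against 48 h in IGF1 hearts (adjusted p = 0.0445). 4 alternatives were added after seeing the data: leaving out slide 4, both other percentiles and, for the 168 h arrays alone, the replicate block, under which 0 of 9 genes were called between treatments. With the percentile over probe averages the lowest Sfrp5 value on IGF1 arrays at 24 h was -4.27 and the highest on vehicle arrays -4.28.

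Apart from the Dkk2 difference between vehicle 168 and 24 h, the differences that changed sign had not passed the test, and the cause was not tested. With normexp, Dkk2 gave -0.0427 (IGF1 48 h against 24 h), -0.0708 (vehicle 168 h against 24 h) and -0.0837 (vehicle 168 h against 48 h), and between treatments Axin2 gave -0.0054 at 24 h and Frzb 0.0188 at 48 h. With array weights, differences between treatments were -0.0097 for Axin2 at 24 h, -0.0004 for Frzb and -0.0592 for Sfrp2 at 168 h, and 0.0503 for Sfrp4, 0.0308 for Sfrp5 and 0.3268 for Wif1 at 48 h. With slide as a block they were 0.0322 for Dkk3, 0.0523 for Sfrp4 and 0.1032 for Wif1 at 48 h, and Wif1 at IGF1 168 h against 24 h was -0.1609. With the mean of probes they were 0.0218 for Dkk3 and 0.0755 for Frzb at 48 h, and with quantile normalization -0.0164 for Sfrp2 at 168 h and 0.0042 for Sfrp4 at 48 h. Without slide 4 they were 0.0414 for Axin2, 0.0334 for Sfrp4 and 0.21 for Wif1 at 48 h, -0.0604 for Dkk3, -0.0765 for Frzb, -0.0226 for Sfrp2 and 0.4444 for Sfrp5 at 168 h, and Sfrp5 at IGF1 48 h against 24 h was -0.2013.

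On leaving out 1 replicate, differences between treatments ran at 24 h from -0.1931 to 0.4848 for Sfrp1 and from -0.482 to 0.0597 for Sfrp2. At 48 h they ran from -0.0103 to 0.3407 for Sfrp1, -0.2259 to 0.2148 for Sfrp4, -0.6439 to 0.1863 for Sfrp5, -0.1188 to 0.0642 for Frzb, -0.117 to 0.1445 for Dkk3, -0.3099 to 0.2431 for Wif1 and -0.5667 to 0.0414 for Axin2. At 168 h they ran from -0.2011 to 0.1962 for Sfrp2, -0.1546 to 0.3415 for Sfrp4, -0.7586 to 0.3354 for Sfrp5, -0.237 to 0.2841 for Frzb, -0.1607 to 0.2204 for Dkk3 and -0.0773 to 0.1932 for Axin2. Sfrp5 at IGF1 48 h against 24 h ran from -0.243 to 0.5872. Signal near background limits Sfrp4 at 24 h and Sfrp5, Wif1, Dkk2 and Axin2 at most times.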
